A study of Homo sapiens with 6 samples.

Results

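The SLC25 family, the carriers of the inner mitochondrial membrane, was followed in A375 cells, a human melanoma line grown in culture, on 6 arrays. Its members were taken by symbol, as every gene named SLC25A with a number that had a probe set assigned to exactly 1 gene. This gave 46 carriers of 18372 genes tested. SLC25A6, an ADP/ATP translocase, was not analysed here. The rule leaves out relatives with other symbols, such as UCP1, UCP2 and UCP3, which stand among the other transporters below. Of the 6 arrays, 3 held RNA of cells transfected with siFAH, a small interfering RNA against FAH, and 3 held RNA of cells transfected with negative control siRNA. All cells carried an siRNA and were collected 72 h after transfection. The design note calls the 3 arrays of a group biological replicates. The comparison rests on 1 cell line and 1 knockdown at 1 time. FAH, or fumarylacetoacetate hydrolase, is the last enzyme of tyrosine breakdown and releases fumarate and acetoacetate.

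SLC25 carriers are small proteins of the inner mitochondrial membrane that exchange metabolites between cytosol and matrix. They are made in the cytosol from nuclear genes and reach the membrane through the TOM complex, the small TIM chaperones and the TIM22 complex. The best known members swap ATP for ADP, bring in phosphate, and move citrate, malate, aspartate, glutamate, folate, iron and carnitine esters. Fumarate made in the cytosol can be turned into malate, which needs such a carrier to enter the matrix, and the study asked whether FAH feeds the citric acid cycle by that way.

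The promoters of 4 members are shown, as pairs of relatives that the results set side by side: SLC25A4, the carrier with the largest change, with SLC25A5, and SLC25A33 with SLC25A36, which move the same cargo. Each is 1 window of 300 bases from RefSeq (GRCh38.p14), 250 before and 50 after the gene's start, 5' to 3', all on the plus strand. The SLC25A4 window is chr4:185143016-185143315, with an ETS site (CCGGAAG) in capitals. The SLC25A5 window is chrX:119468194-119468493, with 6 GC boxes (GGGCGG or, on the other strand, CCGCCC) and 1 TATA box (TATAAA) in capitals. The windows of SLC25A33 (chr1:9539215-9539514) and SLC25A36 (chr3:140941586-140941885) have in capitals 1 E-box (CACGTG), 1 cAMP response element (TGACGTCA) and 3 and 2 GC boxes.
SLC25A4: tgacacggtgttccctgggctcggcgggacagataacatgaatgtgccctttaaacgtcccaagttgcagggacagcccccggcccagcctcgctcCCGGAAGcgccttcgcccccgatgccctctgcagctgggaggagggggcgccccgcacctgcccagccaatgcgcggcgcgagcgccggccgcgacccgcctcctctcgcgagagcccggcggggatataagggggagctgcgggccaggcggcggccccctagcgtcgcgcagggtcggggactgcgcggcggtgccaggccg
SLC25A5: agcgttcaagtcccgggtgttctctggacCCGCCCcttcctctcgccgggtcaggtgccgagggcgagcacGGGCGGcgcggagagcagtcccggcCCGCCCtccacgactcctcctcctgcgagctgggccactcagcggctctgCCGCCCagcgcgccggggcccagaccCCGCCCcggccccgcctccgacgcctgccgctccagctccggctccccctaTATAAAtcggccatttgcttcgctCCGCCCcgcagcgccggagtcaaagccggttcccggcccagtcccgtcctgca
SLC25A33: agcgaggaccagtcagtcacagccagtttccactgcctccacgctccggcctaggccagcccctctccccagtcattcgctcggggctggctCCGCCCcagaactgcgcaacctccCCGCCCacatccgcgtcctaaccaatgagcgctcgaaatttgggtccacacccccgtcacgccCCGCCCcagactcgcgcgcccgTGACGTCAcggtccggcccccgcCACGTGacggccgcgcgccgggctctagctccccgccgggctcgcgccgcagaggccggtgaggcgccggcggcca
SLC25A36: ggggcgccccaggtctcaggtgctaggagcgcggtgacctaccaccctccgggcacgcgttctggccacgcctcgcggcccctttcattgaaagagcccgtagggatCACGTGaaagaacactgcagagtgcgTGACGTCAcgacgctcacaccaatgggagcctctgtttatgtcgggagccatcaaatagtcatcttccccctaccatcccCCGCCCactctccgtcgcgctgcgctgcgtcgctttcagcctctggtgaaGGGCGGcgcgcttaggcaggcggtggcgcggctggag

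Promoter windows were matched for 39 of the 46 carriers, 49 windows in all, and 6 motifs were searched on both strands. The motifs were chosen after the sequences had been seen, and a match is a description of letters and not of binding. The E-box stood in 9 of the 49 windows (18.4%), against 7.26% of all 35116 promoters and 8.33% of the 20066 promoters of genes tested. The cAMP response element stood in 3 of them, those of SLC25A25, SLC25A33 and SLC25A36 (6.12%, against 1.85% of all promoters and 2.33% of those of genes tested). The ETS site was found in 11 windows (22.4%, against 10.3% of all and 13.0% of genes tested), the GC box in 32 (65.3%, against 45.0% and 57.3%) and the TATA box in 4 (8.16%, against 11.5% and 9.04%). An element bound by ATF4 and C/EBP factors (TGATGNAA) was found in 1 window, that of SLC25A11 (2.04%, against 3.62% and 2.68%). No motif overlaps another in the 4 windows shown.

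FAH itself read 4.92, 4.60 and 4.92 in siFAH cells, against 5.48, 5.59 and 5.68 in control cells (log2 signal). It was lower in every siFAH array, with a log2 fold change of -0.77 (SE 0.098, adjusted p = 0.00213, limma). Array medians lay between 4.92 and 5.04, and the correlation across genes was at least 0.995 within a group and 0.988 between groups. Control replicate 3 stood somewhat apart: it had the lowest median and the lowest array weight (0.428, against 3.23 for control replicate 2), so that results are also given without it. Of 7 tested melanocyte lineage genes of 8 listed, SOX10 read 8.36 in siFAH cells and 8.56 in control cells and MITF read 6.57 and 6.60, while MLANA, PMEL, TYR and TYRP1 were all under a log2 signal of 5, and none of the 7 passed the test. The pigment markers of the lineage were thus dim in a line labelled as melanoma. In bulk RNA, fewer cells of a type and less RNA per cell cannot be told apart.

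Of the 46 carriers, 2 were lower in siFAH cells, SLC25A4 and SLC25A32, and none was higher at an adjusted p under 0.05 (limma, Benjamini-Hochberg over all genes). That is 4.35% of the family, while 9.86% of all genes tested passed, 6.38% lower and 3.48% higher. The family's share of calls was thus no larger than that of all genes. At an unadjusted p under 0.05, 7 carriers were lower and none was higher (15.2%, against 26.2% of all genes in either direction). At 1.2-fold with an unadjusted p under 0.05, the limits named in the study's methods, the same 2 carriers passed, against 12.6% of all genes.

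The family as a whole moved little. The median log2 fold change of the 46 carriers was -0.05, beside 0.0050 for all genes, with a range from -0.52 for SLC25A4 to 0.19 for SLC25A51. A total of 29 values were negative and 17 positive, or 63.0% negative against 48.6% of all genes. For 10 carriers the 2 groups of arrays were fully apart, 8 lower and 2 higher in siFAH cells (21.7%), while this was so for 32% of all genes. The sign depended on scaling for 9 carriers. Over the deposited values, quantile normalization, median centring and cyclic loess, 24 carriers were negative throughout and 13 positive throughout. Without control replicate 3, 27 carriers were negative and the median was -0.03.

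**Figure D1:**
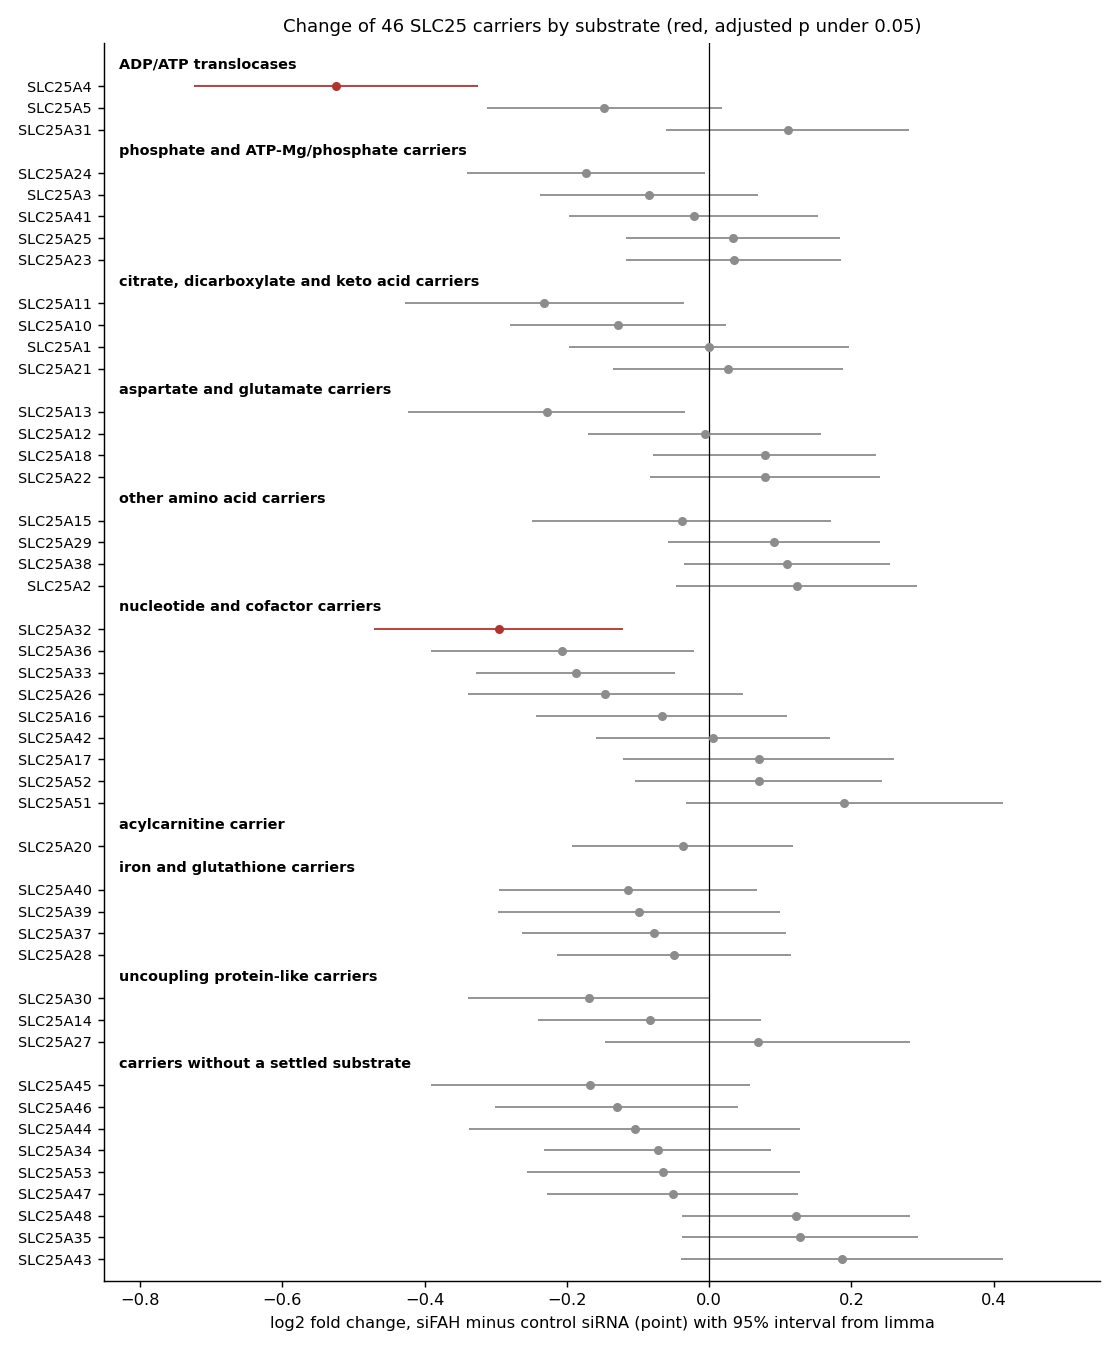
Change of the 46 SLC25 carriers on the log2 scale (horizontal axis, siFAH minus control siRNA) with 95% intervals from limma, grouped by substrate, with carriers at an adjusted p under 0.05 in red. Only SLC25A4 (-0.52) and SLC25A32 (-0.30) are red, and the other 44 points lie between -0.23 and 0.19.

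The adenine nucleotide translocases, which exchange matrix ATP for cytosolic ADP, held the largest change of the family. SLC25A4 (ANT1, the form known from heart and skeletal muscle) read 7.41, 7.37 and 7.41 in siFAH cells, against 7.89, 7.76 and 8.12 in control cells. The 3 siFAH arrays were nearly equal and all below the lowest control array, while the control arrays were more spread. SLC25A4 fell 1.44-fold, with a log2 fold change of -0.52 (SE 0.090, 95% interval -0.72 to -0.32, adjusted p = 0.00746, limma). Its value was -0.43 without control replicate 3 (adjusted p = 0.0195). It passed in 14 of 15 alternative fits, the exception being the methods' t-test with a Benjamini-Hochberg adjustment added here (adjusted p = 0.131).

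SLC25A5 (ANT2, the form known from dividing cells) read 9.55, 9.53 and 9.55 in siFAH cells, against 9.57, 9.71 and 9.80 in control cells. The groups did not overlap, but control replicate 1 lay only just above the siFAH arrays. Its log2 fold change of -0.15 (SE 0.075, interval -0.31 to 0.02, adjusted p = 0.241, limma) did not pass, and it was -0.08 with quantile normalization and -0.05 with cyclic loess. SLC25A31 (ANT4, known from the testis) had a dim probe set, with 2.72, 2.72 and 2.72 in siFAH cells and 2.60, 2.74 and 2.48 in control cells, so that control replicate 2 lay above the siFAH arrays and the others below. The difference SLC25A4 minus SLC25A5 within each array was -2.15 ± 0.014 in siFAH cells and -1.77 ± 0.157 in control cells (SD, n = 3 each). Those differences did not overlap between groups, and siFAH minus control was -0.38. The exact permutation p of 0.1 (two-sided, n = 3 each) is the smallest that 3 against 3 arrays can give, and it was 0.333 after adjustment over the 10 pairs of relatives compared.

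**Figure D2:**
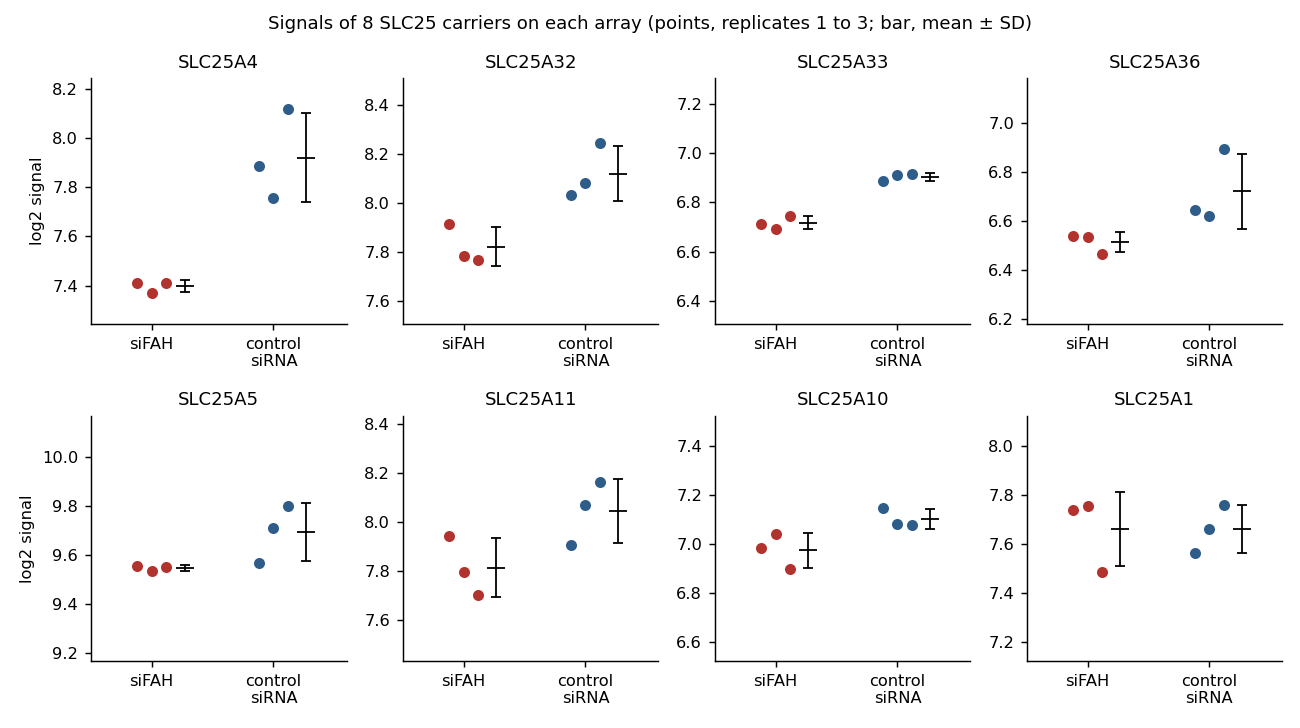
Log2 signal (vertical axis, each panel spanning 1 unit) of 8 carriers on the 3 siFAH arrays (red, left) and the 3 control siRNA arrays (blue, right), with the mean and SD as a black bar. SLC25A4, SLC25A32, SLC25A33, SLC25A36, SLC25A5 and SLC25A10 show no overlap between groups, while SLC25A11 and SLC25A1 do.

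The phosphate carrier SLC25A3, which supplies phosphate for ATP synthesis, had a log2 fold change of -0.08 (interval -0.24 to 0.07), with positive sign after cyclic loess (0.02). The 4 ATP-Mg/phosphate carriers, which adjust the adenine nucleotide pool of the matrix, had no call. SLC25A24 read 6.11, 6.31 and 6.16 in siFAH cells, against 6.33, 6.33 and 6.44 in control cells, which did not overlap. It had -0.17 (SE 0.075, adjusted p = 0.175, limma), while SLC25A23 had 0.03, SLC25A25 0.03 and SLC25A41 -0.02. The difference SLC25A24 minus SLC25A25 did not overlap between groups either (siFAH minus control -0.21, exact permutation p = 0.1, adjusted 0.333). SLC25A24 minus SLC25A23 also had -0.21, but its groups overlapped (exact permutation p = 0.2, adjusted 0.5). The sign of SLC25A23 and of SLC25A25 turned negative when each array was centred on its median (-0.02 and -0.02).

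Of the carriers of citric acid cycle intermediates SLC25A11, SLC25A10 and SLC25A1 bear directly on the passage of malate and citrate, and none passed the test. SLC25A11, the oxoglutarate/malate carrier, read 7.94, 7.79 and 7.70 in siFAH cells, against 7.91, 8.07 and 8.16 in control cells. SiFAH replicate 1 lay above control replicate 1, so the groups overlapped. Its log2 fold change was -0.23 (SE 0.088, interval -0.43 to -0.04, adjusted p = 0.127, limma), and it did not pass in any of 15 alternatives, where the adjusted p ran from 0.0517 to 0.352. With quantile normalization or cyclic loess the value was -0.13.

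SLC25A10, the dicarboxylate carrier that exchanges malate and succinate for phosphate, read 6.98, 7.04 and 6.90 in siFAH cells, against 7.15, 7.08 and 7.08 in control cells. Every siFAH array was below every control array, though siFAH replicate 2 came close to control replicates 2 and 3. The log2 fold change was -0.13 (SE 0.069, interval -0.28 to 0.02, adjusted p = 0.267, limma), and it was -0.05 with both quantile normalization and cyclic loess. SLC25A1, the citrate carrier that exports citrate for fatty acid synthesis, read 7.74, 7.75 and 7.49 in siFAH cells, against 7.56, 7.66 and 7.76 in control cells. The groups overlapped fully, with a log2 fold change of -0.00017 (SE 0.089, interval -0.20 to 0.20, adjusted p = 0.999). Its sign was positive after quantile normalization (0.09) and cyclic loess (0.10). SLC25A21, the oxodicarboxylate carrier, was dim and had 0.03, with negative sign in the other 3 scalings.

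The aspartate/glutamate exchangers serve the malate-aspartate shuttle, which brings reducing equivalents into the matrix. SLC25A13 (citrin) read 7.52, 7.55 and 7.36 in siFAH cells, against 7.60, 7.64 and 7.87 in control cells. The groups did not overlap, although siFAH replicate 2 and control replicate 1 were close, and the log2 fold change of -0.23 (SE 0.088, adjusted p = 0.131, limma) did not pass. It was -0.14 with quantile normalization and -0.13 with cyclic loess. Its relative SLC25A12 (aralar) had -0.01, with positive sign after quantile normalization and cyclic loess (0.03 and 0.04). SLC25A13 minus SLC25A12 was 1.18 ± 0.119 in siFAH cells and 1.40 ± 0.0456 in control cells (SD, n = 3 each), without overlap (exact permutation p = 0.1, adjusted 0.333). The glutamate carriers SLC25A18 and SLC25A22 had 0.08 each.

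In the fit of all arrays, the cytosolic enzymes of the same shuttle passed the test where its carriers did not. GOT1, the cytosolic aspartate aminotransferase, read 7.20, 7.19 and 7.31 in siFAH cells, against 7.50, 7.72 and 7.80 in control cells. GOT1 was lower in every siFAH array, with -0.44 (SE 0.088, adjusted p = 0.0138, limma), a call that did not hold in the fits without siFAH replicate 2, control replicate 2 or control replicate 3. MDH1, the cytosolic malate dehydrogenase, was lower by -0.33 (adjusted p = 0.0362), a call that was not followed over the alternatives. The mitochondrial partners GOT2 and MDH2 had -0.31 (adjusted p = 0.0949) and 0.07 (adjusted p = 0.570). Whether carrier and enzyme differed in their change was not tested.

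None of the 4 other amino acid carriers was called. SLC25A2 (0.12) and SLC25A15 (-0.04), which exchange ornithine for citrulline, SLC25A29 (0.09), a carrier of basic amino acids, and SLC25A38 (0.11), which brings glycine in for heme synthesis, had a median of 0.10. SLC25A38 read 6.50, 6.50 and 6.48 in siFAH cells, against 6.32, 6.43 and 6.40 in control cells. Every siFAH array was above every control array, yet the adjusted p was 0.324 (limma). Among the enzymes around ornithine and proline, ALDH18A1, which makes the precursor of both, read 7.04, 6.97 and 6.93 in siFAH cells, against 7.38, 7.45 and 7.68 in control cells. ALDH18A1 was lower without overlap (-0.52, SE 0.085, adjusted p = 0.00593), and so was OAT, ornithine aminotransferase (-0.29, adjusted p = 0.0400). ARG2, mitochondrial arginase, had -0.26 (adjusted p = 0.261).

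The nucleotide and cofactor carriers held the second call. SLC25A32, which carries folate and FAD into the matrix, read 7.92, 7.78 and 7.77 in siFAH cells, against 8.03, 8.08 and 8.25 in control cells. All siFAH arrays were below all control arrays, with siFAH replicate 1 the nearest to them. SLC25A32 was lower by 1.23-fold, with a log2 fold change of -0.30 (SE 0.079, interval -0.47 to -0.12, adjusted p = 0.0418, limma). The call was near the threshold and was lost in 8 of 15 alternatives, including quantile normalization (-0.20, adjusted p = 0.100) and cyclic loess (-0.19, adjusted p = 0.113). Leaving out siFAH replicate 2 or 3 also ended it (adjusted p = 0.125 and 0.139), as did leaving out control replicate 2 or 3 (adjusted p = 0.0917 and 0.122).

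Of 4 tested enzymes that use mitochondrial folate, 3 were called lower. All 4 belong to the list of cargo enzymes described below. Of all genes 9.86% were called, and 22.7% of those with a signal of 7 or above. SHMT2, mitochondrial serine hydroxymethyltransferase, read 8.68, 8.58 and 8.44 in siFAH cells, against 9.18, 9.26 and 9.39 in control cells. MTHFD2, the mitochondrial methylene-tetrahydrofolate dehydrogenase, read 8.81, 8.82 and 8.82 in siFAH cells, against 9.25, 9.38 and 9.53 in control cells. For both genes the groups were far apart relative to their spread, with -0.71 for SHMT2 (SE 0.084, adjusted p = 0.00168) and -0.57 for MTHFD2 (SE 0.080, adjusted p = 0.00317, limma), and each passed in 14 of 15 alternatives, all but the methods' t-test. The second probe set of MTHFD2 gave -0.61. MTHFD1L, the formate-producing enzyme of the same route, had -0.28 (adjusted p = 0.0395), a call lost in 10 of 15 alternatives that included the loss of any 1 array. MTHFD2L had -0.28 (adjusted p = 0.223).

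SLC25A33 and SLC25A36 both carry pyrimidine nucleotides, the building blocks of mitochondrial DNA and RNA. SLC25A33 read 6.71, 6.69 and 6.75 in siFAH cells, against 6.89, 6.91 and 6.92 in control cells. The arrays within each group were close together and the groups were clearly apart, but the difference was small at -0.19 (SE 0.063, adjusted p = 0.0882, limma). SLC25A33 passed with median centring (adjusted p = 0.0476), without dim probe sets (0.0410), with array weights (0.0351) and with the mean of its probe sets (0.0301). It did not pass in the other 11 alternatives, which include every fit with 1 array left out, quantile normalization (-0.12, adjusted p = 0.279) and cyclic loess (-0.12, adjusted p = 0.285). Its second, slightly dimmer probe set had -0.34 (SE 0.069, adjusted p = 0.0146 over all 1-symbol probe sets).

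SLC25A36 read 6.54, 6.54 and 6.47 in siFAH cells, against 6.65, 6.62 and 6.89 in control cells. Control replicate 3 lay well above the other 2 control arrays. SLC25A36 had -0.21 (SE 0.084, adjusted p = 0.148, limma), and the value ran from -0.26 to -0.12 over the alternatives. SLC25A33 minus SLC25A36 differed by 0.02 between siFAH and control cells (exact permutation p = 0.9). The windows of both genes above have an E-box and a cAMP response element. The other carriers with an E-box ran from -0.23 for SLC25A13 to 0.19 for SLC25A51. SLC25A25, the remaining carrier with a cAMP response element, had 0.03. Whether motif and change go together was not tested.

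The other cofactor carriers had no call. SLC25A26, which brings in S-adenosylmethionine, had -0.15 (adjusted p = 0.323), while MAT2A, the enzyme that makes S-adenosylmethionine in the cytosol, was lower by -0.37 (adjusted p = 0.0177, limma). The coenzyme A carriers SLC25A16 and SLC25A42 had -0.07 and 0.01, and the coenzyme A synthesis genes PANK2 and COASY had 0.00030 and 0.05. SLC25A51, the NAD carrier, had 0.19 (interval -0.03 to 0.41) and its close relative SLC25A52 had 0.07, both from dim probe sets. SLC25A17, the peroxisomal member of the family, had 0.07.

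SLC25A20, the carnitine-acylcarnitine carrier of fatty acid oxidation, had -0.04 (interval -0.19 to 0.12), and its enzyme partners CPT1A, CPT2 and CRAT had -0.10, -0.25 and 0.02 with no call. All 4 iron and glutathione carriers were negative in the deposited values and none passed. The glutathione carriers SLC25A39 and SLC25A40 had -0.10 and -0.11, and the mitoferrins SLC25A28 and SLC25A37 had -0.05 and -0.08. SLC25A39 turned slightly positive after cyclic loess (0.01). A second probe set of SLC25A37 had -0.15. Of the heme genes beside them, ALAS1, the first enzyme of the pathway, had -0.21 (adjusted p = 0.0898) and FECH, which inserts the iron, had -0.12 (adjusted p = 0.345).

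The carriers related to uncoupling proteins had -0.17 (SLC25A30), -0.08 (SLC25A14) and 0.07 (SLC25A27). Of 9 carriers that the grouping used here lists as without a settled substrate, 6 were negative and 3 positive. Their median was -0.06 and none was called. They ran from -0.17 for SLC25A45 and -0.13 for SLC25A46, an outer membrane member that acts in mitochondrial fission and fusion, through SLC25A44 (-0.10), SLC25A34 (-0.07), SLC25A53 (-0.06) and SLC25A47 (-0.05) to SLC25A48 (0.12), SLC25A35 (0.13) and SLC25A43 (0.19). SLC25A43 read 5.40, 5.75 and 5.82 in siFAH cells, against 5.50, 5.46 and 5.45 in control cells. SiFAH replicate 1 was below all control arrays and the other siFAH arrays above them, and only without that replicate was the gene called higher (0.32). SLC25A48 read 5.07, 5.14 and 5.17 in siFAH cells, against 5.06, 5.05 and 4.90 in control cells, so that the groups were apart by a narrow gap.

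Change and probe set signal went together across the family and across all genes alike. The 10 carriers with a mean log2 signal under 5 had a median log2 fold change of 0.05, beside 0.05 for all genes of that class. The 13 carriers from 5 to 6 had 0.01, beside 0.01 for all genes, and the 13 from 6 to 7 had -0.08, beside -0.05. The 10 carriers at 7 or above were all negative in the deposited values, with a median of -0.14 beside -0.10 for all genes of that class, of which 69.4% were negative. Of these 10, SLC25A1 was positive after quantile normalization (0.09), and SLC25A1 (0.10), SLC25A3 (0.02) and SLC25A39 (0.01) after cyclic loess. Both called carriers were in this class (20%, against 22.7% of all genes there). A probe set's signal does not rank genes by mRNA abundance.

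**Figure D3:**
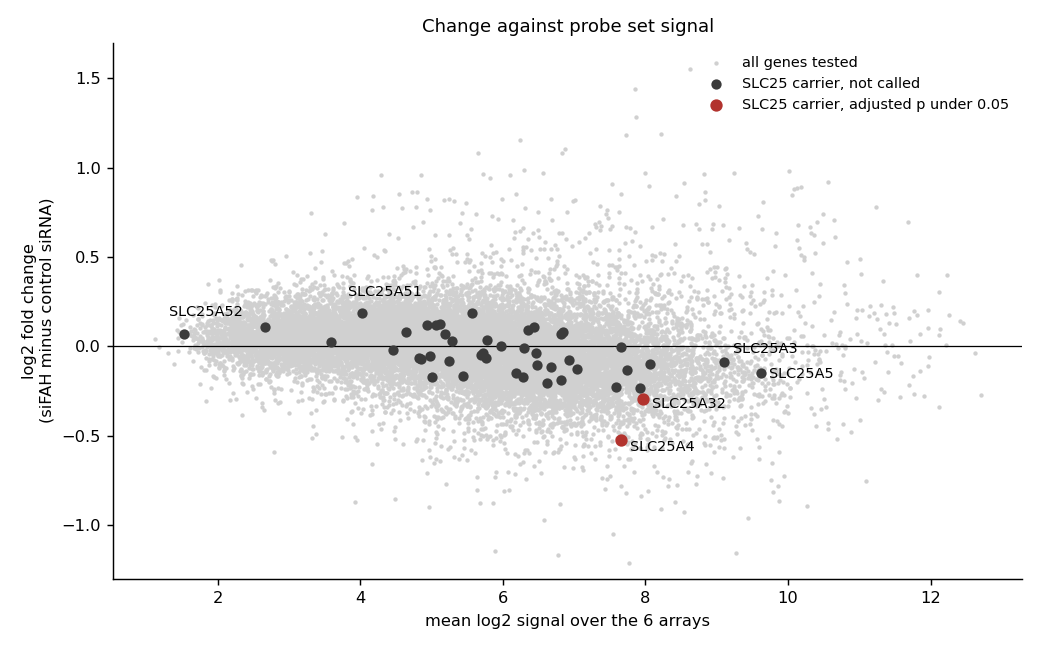
Log2 fold change (siFAH minus control siRNA, vertical axis) against the mean log2 signal over the 6 arrays (horizontal axis) for all 18372 genes (light grey) and the 46 SLC25 carriers (dark, with the 2 called in red). In these deposited values the 10 carriers with a signal of 7 or above all lie below 0 (after cyclic loess SLC25A1, SLC25A3 and SLC25A39 do not), where all genes of that class have a median of -0.10.

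Single arrays also left a common mark on the family. Control replicate 3 was the highest of all 6 arrays for 23 of 46 carriers (50%), beside 28.6% of all genes, and the highest control array for 29 carriers (63.0%, beside 40.1%). SiFAH replicate 1 was the highest siFAH array for 22 carriers (47.8%, beside 37.8% of all genes). SLC25A4, SLC25A32, SLC25A5, SLC25A11, SLC25A13 and SLC25A36 all had their highest value on control replicate 3. What part this array has in the family's differences was not tested beyond the fits without it, in which SLC25A4 was the only carrier called.

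**Figure D4:**
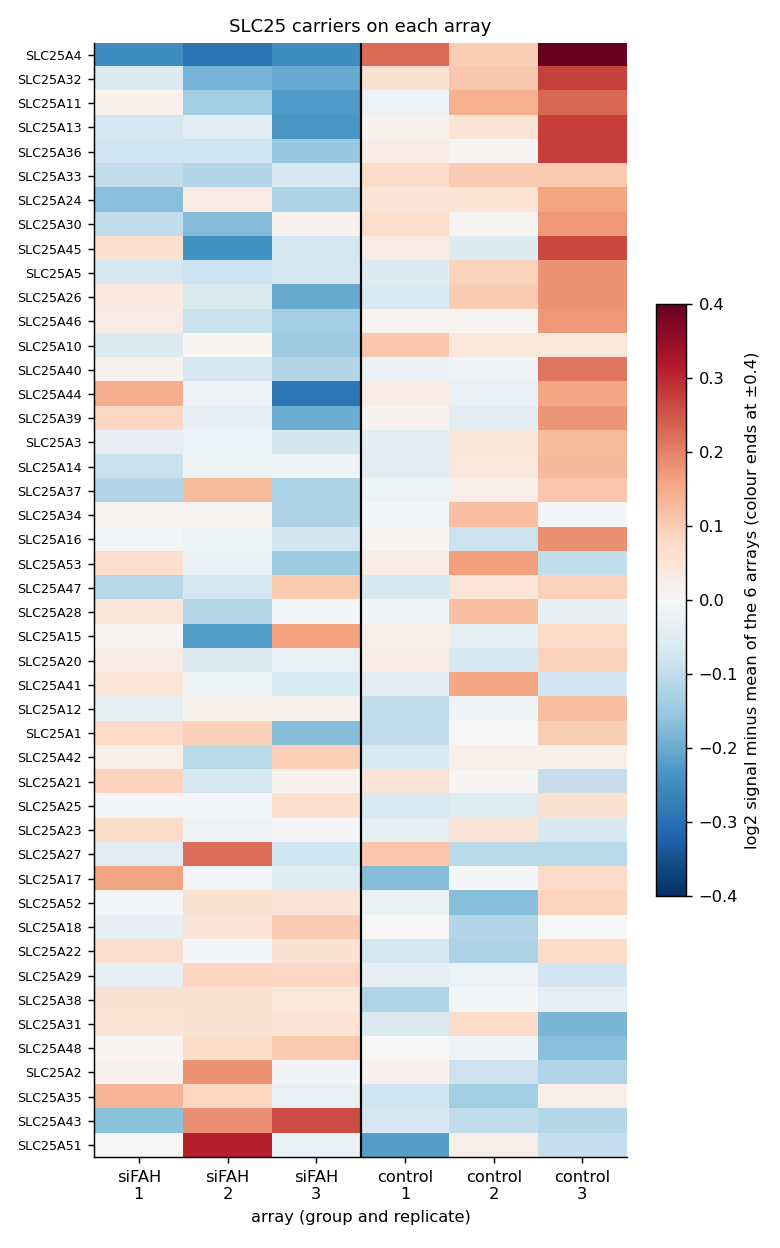
Log2 signal of each SLC25 carrier on each array minus its mean over the 6 arrays, with the siFAH arrays on the left and the control siRNA arrays on the right, and carriers ordered by log2 fold change from the most negative (top). Control replicate 3 is the highest array for 23 of the 46 carriers, and the SLC25A4 value there lies beyond the end of the colour scale.

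The genes around the carriers were described in 4 lists, which were chosen with earlier results of these data known. Of 13 tested genes of the import route, 2 were lower and 1 was higher (23.1%, beside 9.86% of all genes), with a median of -0.07. The median probe set signal of this list was 7.04, and 22.7% of all genes with a signal of 7 or above were called. The part of signal in this count was not tested. TOMM22, a receptor of the outer membrane, read 8.47, 8.25 and 8.50 in siFAH cells, against 8.77, 8.75 and 8.76 in control cells, and was lower by -0.35 (SE 0.079, adjusted p = 0.0220, limma). These are readings of its brightest probe set, and the mean of its probe sets had -0.29 (adjusted p = 0.0317, limma). TIMM22, the core of the inner membrane complex that inserts SLC25 carriers, read 7.89, 7.89 and 7.81 in siFAH cells, against 8.16, 8.12 and 8.22 in control cells, and was lower by -0.31 (SE 0.067, adjusted p = 0.0200). TIMM9, a small chaperone that escorts carriers between the membranes, read 6.08, 6.33 and 6.25 in siFAH cells, against 6.02, 5.88 and 5.86 in control cells, and was higher by 0.30 (SE 0.082, adjusted p = 0.0454).

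The groups did not overlap for any of these 3 genes, but their calls were fragile. Each was lost when siFAH replicate 2, control replicate 2 or control replicate 3 was left out, those of TIMM22 and TIMM9 also without siFAH replicate 3. Quantile normalization and cyclic loess ended those of TOMM22 and TIMM22, and median centring that of TIMM9. Of the other import genes, TIMM13 had -0.36 (adjusted p = 0.0599) and AGK, a subunit of the TIM22 complex, had -0.24 (adjusted p = 0.0827).

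Of 23 tested transporters and channels outside the SLC25 family, 4 were lower and none was higher (17.4%, beside 9.86% of all genes), with a median of -0.10. The median probe set signal of this list was 6.60, and 13.3% of all genes with a signal from 6 to 7 were called. SFXN2, a sideroflexin of the inner membrane, read 5.90, 5.94 and 5.89 in siFAH cells, against 6.34, 6.32 and 6.47 in control cells. SFXN2 was lower by -0.47 (SE 0.070, adjusted p = 0.00408, limma), a call lost only with the methods' t-test among 15 alternatives. ABCB10, a transporter of the inner membrane needed for heme synthesis, was lower by -0.31 (adjusted p = 0.0319), which was lost in 9 alternatives, 5 of them fits without any 1 siFAH array, control replicate 2 or control replicate 3. UCP2, which by sequence is also a mitochondrial carrier (SLC25A8), was lower by -0.29 (adjusted p = 0.0383), which was lost in 7 alternatives, among them those without siFAH replicate 1, siFAH replicate 3 or any 1 control array.

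VDAC2, a channel of the outer membrane, was lower by -0.46 on its brighter probe set (adjusted p = 0.0118, limma). Its other probe set had 0.23, and the mean of both had -0.12 (adjusted p = 0.282), so the direction depends on the probe set. UCP1 and UCP3, the other uncoupling proteins, had 0.03 and 0.01 from dim probe sets. The pyruvate carrier subunits MPC1 and MPC2 had -0.24 (adjusted p = 0.0623) and -0.07 (adjusted p = 0.535).

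Among 27 tested enzymes that make or use the cargo of SLC25 carriers, 8 were lower and none was higher (29.6%), with a median of -0.21. Since this list too was chosen with earlier results known, its share of calls is only a description. Of all genes 9.86% were called, and 22.7% of those with a signal of 7 or above. The 8 were SHMT2, MTHFD2, ALDH18A1, GOT1, MAT2A, MDH1, OAT and MTHFD1L, all given above, of which the last 4 were singled out after their values had been seen. The single calls of MAT2A, MDH1 and OAT were not followed over the alternatives. With quantile normalization or cyclic loess 5 were called. The median probe set signal of the list was 7.32, beside 6.08 for the carriers, and the median change of all genes was lower at higher signal, as given above. The part of signal in the count was not tested. CS and ACLY, which make and use citrate, had -0.13 (adjusted p = 0.288) and -0.21 (adjusted p = 0.186).

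Of 10 regulators of mitochondrial gene expression, TFB1M, which methylates the mitochondrial ribosomal RNA, was the only one called. TFB1M read 7.74, 7.82 and 7.78 in siFAH cells, against 8.22, 8.27 and 8.30 in control cells, and was lower by -0.48 (SE 0.066, adjusted p = 0.00274, limma). The arrays of each group were close together and the groups far apart, and only the methods' t-test did not call it. The median of the list was -0.0015. PPARGC1A, NRF1, GABPA and TFAM, which drive mitochondrial genes, had 0.17, -0.01, 0.07 and -0.05 with no call, PPARGC1A from a dim probe set. ESRRA, another such regulator, had 0.27 (adjusted p = 0.176, limma), with overlap between the groups. It was the only regulator higher at 1.2-fold with an unadjusted p under 0.05.

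**Figure D5:**
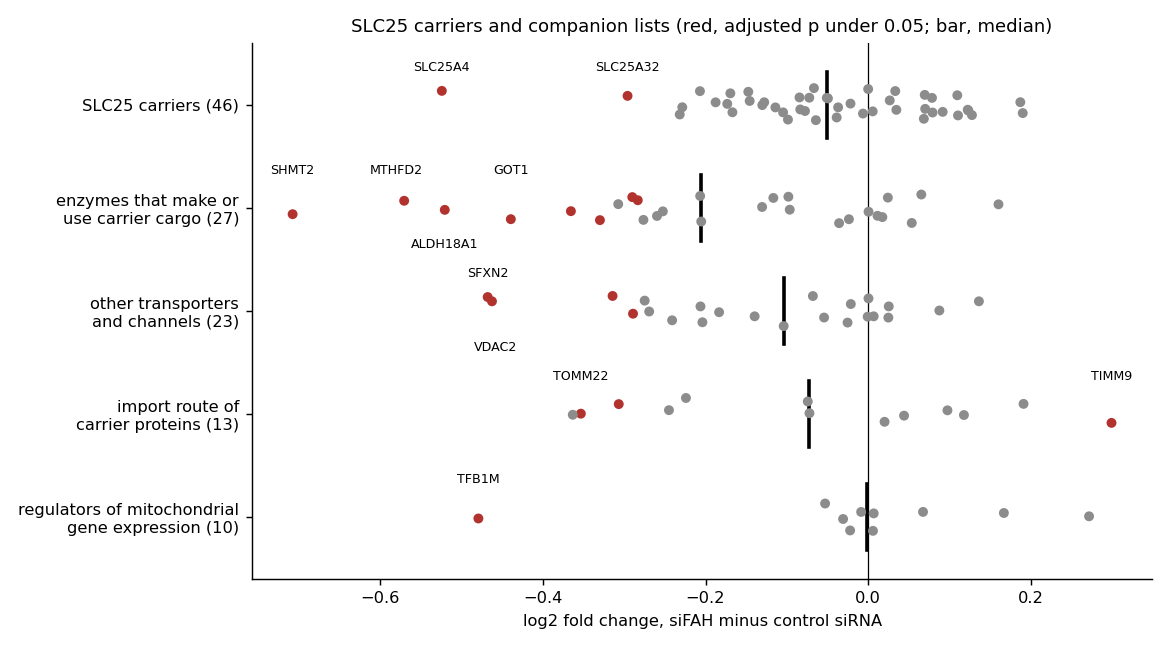
Change on the log2 scale (horizontal axis, siFAH minus control siRNA) of each tested gene of the SLC25 family and of 4 lists around it, 1 point per gene, red at an adjusted p under 0.05, with a black bar at the median. The enzymes that make or use carrier cargo have a median of -0.21 with 8 of 27 called, and the SLC25 carriers a median of -0.05 with 2 of 46 called. The family and the lists were chosen with earlier results of these data known, the members of the family by symbol.

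Some genes listed as markers of other cell types or states differed between the groups, all read in 1 cultured line. Of the undifferentiated melanoma state genes, all 4 tested, AXL was lower (-0.55) and EGFR higher (0.31), with summed linear signals from 393 to 434 in siFAH cells and 502 to 540 in control cells. Of 4 tested leukocyte genes of 5 listed, CD68, a lysosomal protein, was higher (0.49) and LYZ lower (-0.51), with sums from 391 to 396 in siFAH cells and 309 to 333 in control cells. PTPRC, which defines leukocytes, read 2.50 in siFAH cells and 2.32 in control cells. The brightest gene weighs most in such a sum: CD68 (8.33 in siFAH cells, 7.85 in control cells) among the leukocyte genes, and AXL (7.77 and 8.31) among those of the undifferentiated state. Of 5 keratinocyte genes, KRT10 was higher (0.45), with sums from 116 to 129 in siFAH cells and 98.7 to 114 in control cells. The 6 fibroblast and 3 endothelial genes had no call, with sums from 189 to 194 in siFAH cells and 172 to 189 in control cells, and from 46.4 to 47.3 in siFAH cells and 42.0 to 45.4 in control cells. The melanocyte lineage sum was 595 to 646 in siFAH cells and 647 to 674 in control cells. The mean signal was under 5 for 4 of 5 keratinocyte, 3 of 6 fibroblast, all 3 endothelial and 2 of 4 leukocyte genes. All genes tested with a signal under 5 had a median log2 fold change of 0.05. The part of the marker genes in the carriers' differences was not tested.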

How the data were processed

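RNA of A375 cells 72 h after transfection was read on Affymetrix Human Gene 1.0 ST arrays. The deposited log2 signals were made by the authors with RMA, which corrects background, normalizes between arrays (global scaling in the methods) and summarizes each probe set. RMA's version and the genome build are not given in the sources used here, and these differ on the RNA and labeling kits. Of 28829 probe sets, 19291 had 1 gene symbol (1735 had several, 7803 were not named here). Gene IDs of 19260 matched RefSeq. Per symbol the probe set with the highest mean was kept. Differences were tested with lmFit and eBayes of limma 3.58.1 (R 4.3.3), two-sided, with 4 residual and 6.52 prior degrees of freedom, and adjusted by Benjamini-Hochberg over 18372 genes. P-values measure the spread between these 6 arrays, whose number limits the precision. The fits were tested on simulated data.

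The family, gene lists, markers and naming rule were chosen with earlier results of these data known. The rule named FAH, every SLC25 carrier and, per list, up to 4 called genes with the largest change. Other genes were named after their values were seen. Related carriers were compared in 10 pairs with an exact permutation test, and 3 of the pairs did not overlap between groups. Alternatives were 3 further scalings (quantile, median centring, cyclic loess), a minimum mean signal of 5, a trended and robust eBayes, array weights, the methods' t-test, averaging the probe sets of a gene, a replicate block, and omission of each array. The t-test comes from the general statistics of the methods, and its Benjamini-Hochberg adjustment was added here. SAM, by which the methods picked genes from the arrays, entered only the counts at 1.2-fold and is not among the 15 alternatives. Figures used matplotlib 3.10.9 (Python 3.11.15, numpy 2.4.6).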

Additional observations from a re-analysis of the deposited data

How the results depend on the processing

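SLC25A4 kept its direction in all 15 alternatives (-0.61 to -0.42), several of which change only the test and cannot move the value. It kept its call in all but the methods' t-test. The median over the SLC25 carriers stayed negative, from -0.10 with median centring to -0.02 with quantile normalization. With the methods' t-test and Benjamini-Hochberg adjustment, FAH kept -0.77 but had an adjusted p of 0.118, and 8 genes were lower and 6 higher, with 0 carriers (4 at an unadjusted p under 0.05) and 0 genes of each of the 4 lists called. SLC25 carriers called lower were 2 in the fit of all arrays, 1 with quantile normalization or cyclic loess, and 1 to 2 when 1 array was left out; 0 to 1 were higher then. At 1.2-fold and an unadjusted p under 0.05 there were 2 carriers, 1 with quantile normalization or cyclic loess, 4 with median centring and 1 to 4 with 1 array left out. SAM and the methods' t-test gave 2 each at these limits. SLC25A1 turned positive with quantile normalization (0.0907), cyclic loess (0.10) and array weights (0.0253), and ran from -0.0489 to 0.0866 with 1 array left out. Import genes called were 3, then 1 with quantile normalization or cyclic loess, 5 without dim probe sets and 0 to 4 with 1 array left out. Calls among the cargo enzymes were 8, then 5 with quantile normalization or cyclic loess and 3 to 8 with 1 array left out, those among other transporters 4 and 2 to 4, and those among regulators 1 and 1 to 2. Of all genes, 1172 were lower and 639 higher, with 416 higher after median centring, 1170 higher with array weights, and 390 to 1192 lower and 267 to 653 higher with 1 array left out. The share of lower genes among those called was 64.7%, against 53.7% with quantile normalization, 80.1% with median centring and 50.5% with cyclic loess. The causes of these changes were not tested.

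Replicates share only a number in the titles: the deviations of same-numbered arrays had correlations of -0.16, -0.09 and -0.27, so the numbers were not taken as pairs. With the replicate number as a block, 1 carrier (SLC25A4), 462 genes lower and 299 higher, 0 import genes, 2 transporters and 5 cargo enzymes were called. For the 37 carriers other than SLC25A1, SLC25A4, SLC25A5, SLC25A10, SLC25A11, SLC25A13, SLC25A32, SLC25A33 and SLC25A36, 538 of 545 values over the alternatives moved by less than the spread between replicates. Several alternatives change only the test or leave out other genes, and return the same log2 fold change. Those values could not move, so the count overstates how stable the carriers are. Dim probe sets, under a log2 signal of 5 for 10 carriers, limit what these arrays show of those genes.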
